A study of Mus musculus with 25 samples.

Results

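The granzymes and perforin are the killing proteins stored in the granules of cytotoxic lymphocytes, and their mRNA was followed here in 25 mouse melanomas. The set was every row of the count table whose gene symbol is Gzma, Gzmb, Gzmc, Gzmd, Gzme, Gzmf, Gzmg, Gzmk, Gzmm or Prf1. All 10 were found among the 55450 genes of the table, and all 10 passed the filter on low counts in the test across genes. B2905, also named M4, is a mouse melanoma line, and it was grown as a tumour in C57BL/6 mice. Of 40 implanted mice, 30 were given an antibody to CTLA-4, an inhibitory receptor of T cells, and 5 were given an isotype control antibody, IgG2b, both at 10 mg/kg. Sequenced were 20 anti-CTLA-4 tumours and 5 IgG2b tumours, the latter called controls below. The labels sort the 20 treated tumours by their size 10 to 11 days after the last dose into 8 responders, which shrank, 6 stable tumours and 6 non-responders, which grew on. The remaining 5 implanted mice were left untreated and are not analysed here. All groups carry the same tumour line, and the age of the mice is not given in the labels. Tumours within a group were numbered only to name them. The labels do not say outright that each tumour came from a separate mouse, and p-values measure the spread between these tumours.

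Perforin forms pores in the membrane of a target cell, through which granzymes enter and cut proteins that lead to the cell's death. Granzyme B cuts after aspartate and activates caspases, while granzymes A and K cut after basic residues and granzyme M cuts after methionine or leucine. Mice carry further genes beside Gzmb on chromosome 14, Gzmc to Gzmg and Gzmn, which people lack and whose substrates are less well known. In cultured mouse T cells Gzmc to Gzmg are known to appear late, after repeated or strong stimulation. Cytotoxic CD8 T cells and natural killer (NK) cells are the main known sources of the members of the set, and Cd8a encodes a chain of the CD8 co-receptor.

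In GRCm38, Gzmb lies at chr14:56258838-56262260, Gzmc at chr14:56231441-56234656, Gzmf at chr14:56205263-56211417, Gzmg at chr14:56156582-56159579, Gzmd at chr14:56129556-56132608 and Gzme at chr14:56117626-56120625, all on the minus strand. The others lie apart, Gzma at chr13:113093825-113100981 and Gzmk at chr13:113171608-113225908 on the minus strand, Gzmm at chr10:79689020-79695261 and Prf1 at chr10:61297833-61304680 on the plus strand. Each granzyme transcript used here has 5 exons and that of Prf1 has 2. How alike the copies are bears on every value below, because a read that fits several copies has to be divided among them. The first 60 coding bases of the chromosome 14 genes, from the GENCODE transcripts, show this, with capitals marking each base that differs from Gzmd at the same position.

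Gzmd: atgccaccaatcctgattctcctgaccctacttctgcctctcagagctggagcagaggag
Gzmg: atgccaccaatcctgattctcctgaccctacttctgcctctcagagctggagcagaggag
Gzmf: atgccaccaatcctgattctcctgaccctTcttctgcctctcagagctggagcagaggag
Gzmc: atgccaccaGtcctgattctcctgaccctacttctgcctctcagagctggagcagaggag
Gzme: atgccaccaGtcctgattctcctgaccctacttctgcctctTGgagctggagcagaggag
Gzmb: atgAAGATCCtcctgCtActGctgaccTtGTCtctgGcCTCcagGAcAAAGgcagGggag

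Over this stretch Gzmg had 0 differences from Gzmd, Gzmf and Gzmc had 1 each, Gzme had 3 and Gzmb had 25. Over the whole coding sequence Gzmd and Gzme were 94.8% identical, Gzme and Gzmg 89.5% and Gzmd and Gzmf 84.7%. Gzmc was 73.3 to 75.1% identical to Gzmd, Gzme, Gzmf and Gzmg, and Gzmb was 67.2 to 76.6% identical to Gzmc to Gzmg. Of all windows of 50 bases in a transcript, 21.9% in Gzmd, 20.6% in Gzme, 19.8% in Gzmg, 7.4% in Gzmf and 4.1% in Gzmc recurred in another copy, while Gzma, Gzmb, Gzmk, Gzmm and Prf1 shared none. The values of Gzmd, Gzme, Gzmf and Gzmg are therefore given 1 by 1 as uncertain, and also as a sum. Gzmf overlaps an antisense gene, Gm4022, and Gzmk overlaps Esm1 on the opposite strand, and the sources used here do not say whether strand entered the counting.

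The stretches before the start sites are shown for Gzmb, Gzmc, Gzmd, Gzmf, Gzmg and Prf1. All 10 members rose over controls in responders and in stable tumours, so that rise does not set apart the genes shown. The stretches are the 140 bases before the RefSeq start in build GRCm38.p6, and all 10 members matched an entry of that table. Capitals mark matches, on either strand, to TGTGGT, the core letters bound by RUNX factors, and to TGANTCA, bound by AP-1.

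Gzmb, chr14:56262335-56262474, minus strand: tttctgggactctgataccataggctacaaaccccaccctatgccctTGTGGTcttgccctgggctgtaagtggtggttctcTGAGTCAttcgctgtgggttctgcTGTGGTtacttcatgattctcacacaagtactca
Gzmc, chr14:56234658-56234797, minus strand: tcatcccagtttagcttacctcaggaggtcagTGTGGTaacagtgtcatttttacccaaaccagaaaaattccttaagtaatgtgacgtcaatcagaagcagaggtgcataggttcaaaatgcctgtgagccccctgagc
Gzmd, chr14:56132594-56132733, minus strand: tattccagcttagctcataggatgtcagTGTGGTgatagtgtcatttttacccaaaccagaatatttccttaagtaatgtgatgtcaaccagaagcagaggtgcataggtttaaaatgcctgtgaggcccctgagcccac
Gzmf, chr14:56211408-56211547, minus strand: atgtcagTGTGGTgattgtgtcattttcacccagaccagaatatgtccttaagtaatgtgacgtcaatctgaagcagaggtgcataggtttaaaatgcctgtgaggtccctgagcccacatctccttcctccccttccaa
Gzmg, chr14:56159580-56159719, minus strand: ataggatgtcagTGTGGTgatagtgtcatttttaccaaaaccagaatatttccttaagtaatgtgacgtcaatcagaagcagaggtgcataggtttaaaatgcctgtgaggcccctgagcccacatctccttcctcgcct
Prf1, chr10:61297696-61297835, plus strand: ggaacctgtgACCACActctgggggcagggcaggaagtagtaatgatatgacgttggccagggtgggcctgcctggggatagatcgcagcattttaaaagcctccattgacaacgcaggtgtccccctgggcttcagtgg

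Upstream stretches of 250 bases of Gzmc to Gzmg were 84.4 to 95.6% identical to one another and at most 59.5% identical to that of Gzmb. TGTGGT was found in this stretch of 9 of the 10 members, the exception being Gzmk, and Gzmm had it only at its first listed start. It was found in 14.0% of all 32851 promoters of the table, where each start counts by itself. Since the copies are so alike, their matches are not separate observations. TGANTCA was found in 1 member, Gzmb, and in 6.7% of all promoters. GGTGTGA, the core letters bound by T-box factors, was found in 2 members, Gzmk and the second listed start of Gzmm, and in 3.3% of promoters. TTCNNNGAA, bound by STAT factors, was found in 1, Gzmm at its first listed start, and in 7.0%. All searches used both strands, and in the members no match of one motif overlaps that of another. Such matches describe letters only.

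The libraries held 8.76 to 34.3 M counts. Reads of protein-coding genes made up 23.8 to 87.0% of counts in responders (median 68.8%) and 82.9 to 89.2% in the other groups, with responder 1 lowest. Mitochondrial rRNA took 1.15 to 14.3% of counts in responders and 1.32 to 7.28% in stable tumours, above its 0.546 to 1.06% in controls and non-responders, and its part in the results was not tested. With the share of protein-coding reads as a covariate, 0 members were called in responders minus non-responders, as a level or per Cd8a. In that level fit 9 of 10 were called higher in responders than in controls, Gzmm being lost. The numbers that the labels give to libraries follow the groups, so library order and group cannot be told apart. Markers of the tumour line itself differed widely, with 7 melanocytic genes summing to 10500 to 17110 CPM (counts per M after scaling of the libraries) in controls, between 723 and 13870 in non-responders, 228 to 504 in stable tumours and 303 to 722 in responders. Non-responder 6 stands apart from its group, being lowest in these melanocytic genes and highest in T and NK cell markers, and results that rest on it are given with and without it. In such bulk samples, more cells of a type and more RNA per cell cannot be told apart.

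Prf1, the pore-forming partner of the granzymes, was at 0.509 to 2.59 CPM in the 5 controls (median 1.29). It ran from 1.12 to 22.7 CPM in non-responders (median 5.01), from 13.9 to 22.1 in stable tumours (median 16.4) and from 6.23 to 23.6 in responders (median 11.2). All stable tumours and responders were above all controls, and 5 of 6 non-responders were. Against controls it rose by 3.18 ± 0.54 (log2 difference ± SE, edgeR quasi-likelihood test, adjusted p = 2.53e-05) in responders, by 3.66 ± 0.56 (adjusted p = 1.6e-05) in stable tumours and by 2.43 ± 0.54 (adjusted p = 0.00345) in non-responders.

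Gzmb was at 1.37, 1.33, 1.21, 1.53 and 2.74 CPM in controls. Non-responders ran from 4.34 to 79.2 CPM (median 13.5), stable tumours from 26.8 to 52.7 (median 38.6) and responders from 8.27 to 54.4 (median 16.8). Every treated tumour was above every control, and the highest value of all 25 tumours belonged to non-responder 6. The rise over controls was 3.88 ± 0.65 in responders (edgeR adjusted p = 2.27e-05), 4.56 ± 0.68 in stable tumours (adjusted p = 1.24e-05) and 3.80 ± 0.66 in non-responders (adjusted p = 0.000658).

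Gzmc was the most abundant member per length. On the authors' RPKM scale, which divides by gene length, its median was 48.6 in responders, 95.5 in stable tumours, 7.90 in non-responders and 1.37 in controls. Gzmb followed it in non-responders and controls, at medians of 7.78 and 0.746 RPKM. In non-responders the ranges of Gzmc and Gzmb overlapped widely, so that their order there is not firm. In CPM, Gzmc was at 1.70, 1.03, 0.509, 2.22 and 1.97 in controls, 4.34 to 104 in non-responders (median 9.44), 29.9 to 159 in stable tumours (median 119) and 19.7 to 158 in responders (median 53.8). It rose over controls by 5.44 ± 0.83 in responders (edgeR adjusted p = 8.82e-06), 6.18 ± 0.87 in stable tumours (adjusted p = 6.93e-06) and 4.21 ± 0.80 in non-responders (adjusted p = 0.00118).

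The remaining copies, Gzmd to Gzmg, split the treated tumours. Gzmd was at 0, 0.0737, 0, 0.164 and 0.0517 CPM in controls, and at 0.162, 0.0864, 0.0430, 0.566 and 0.125 CPM in non-responders 1 to 5, but at 11.3 CPM in non-responder 6. It ran from 2.34 to 20.1 CPM in stable tumours (median 7.47) and from 0.813 to 11.7 in responders (median 4.62). So 5 of 6 non-responders were below every responder and every stable tumour, and the other one was among the highest.

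Gzme, Gzmf and Gzmg had the same layout. Gzme was at most 0.117 CPM in controls and at most 0.364 in 5 non-responders, at 5.16 in non-responder 6, at 0.948 to 6.87 in stable tumours and at 0.452 to 3.64 in responders. Gzmf was at most 0.0548 CPM in controls and 0.0432 in 5 non-responders, at 8.33 in non-responder 6 and at 3.46 to 15.8 in stable tumours. In responders Gzmf ran from 0 to 17.4 CPM (median 3.91), with the 0 in responder 7.

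Gzmg had 0 counts in all 5 controls and 1 count over non-responders 1 to 5, against 124 counts in non-responder 6, 15 to 123 counts per stable tumour and 1 to 69 per responder. Summed, Gzmd to Gzmg gave 0.129 to 0.971 CPM in non-responders 1 to 5, 29.5 in non-responder 6, 7.86 to 48.1 in stable tumours and 1.36 to 32.8 in responders, whose lowest was responder 7. Gzmn, the other copy in the cluster, had 1 count in all 25 tumours.

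Folds over groups near 0 counts were taken against the pooled counts of that group, with 95% exact Poisson intervals, or a floor of 3 counts over the group where it had 0. These cover counting error only. By edgeR all 4 were called higher than in controls in every treated group, Gzmd for example by 6.37 ± 1.34 in responders, 7.00 ± 1.38 in stable tumours and 4.93 ± 1.31 in non-responders (edgeR adjusted p = 0.00027, 0.000251 and 0.0135), values that depend on the prior count. In non-responders all 4 calls ended without non-responder 6, with differences of 1.59 for Gzmd, 0.47 for Gzme, 0.30 for Gzmf and 1.29 for Gzmg. Against the 9 Gzmd counts of the controls, the mean of responders was 87.6-fold higher (46.2 to 191.6). Against the 4 Gzmf counts of the controls it was 209-fold higher (81.8 to 768.6), and Gzmg was at least 91.4-fold higher. In stable tumours Gzmg was at least 100.2-fold higher than in controls. Over all tumours the Gzmd difference between responders and non-responders was 1.44 ± 0.89 (edgeR adjusted p = 0.181) and was not called. Against the 22 Gzmd counts pooled over non-responders 1 to 5, with non-responder 6 left out after its values were seen, responders were 27.8-fold higher (18.4 to 44.4) and stable tumours 42.8-fold higher (28.3 to 68.3).

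The tryptase-like pair Gzma and Gzmk differed from these copies. Gzma was at 0.933, 1.03, 0.509, 1.07 and 1.76 CPM in controls, 0.864 to 21.7 in non-responders (median 4.11), 6.41 to 13.2 in stable tumours (median 8.29) and 1.81 to 14.5 in responders (median 4.75). Gzmk was at 0 to 0.155 CPM in controls, 0.259 to 4.47 in non-responders (median 0.946), 1.44 to 3.06 in stable tumours (median 1.76) and 0.140 to 3.31 in responders (median 1.72). Without non-responder 6 the non-responders reached only 4.33 CPM of Gzma and 2.79 CPM of Gzmk, and the responder ranges still overlapped with theirs. Against controls, Gzma rose by 2.51 ± 0.63, 3.17 ± 0.66 and 2.56 ± 0.65 in responders, stable tumours and non-responders (edgeR adjusted p = 0.00132, 0.000431 and 0.00919). The non-responder call ended without non-responder 6, at 1.57 ± 0.51 (edgeR adjusted p = 0.052). Gzmk rose by 4.59 ± 0.86, 4.84 ± 0.88 and 4.63 ± 0.87 in the same order (edgeR adjusted p = 7.34e-05, 9.48e-05 and 0.00102).

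Gzmm was the member that moved least. It was at 0.110 to 0.466 CPM in controls, between 0.325 and 0.803 in non-responders, 0.373 to 0.766 in stable tumours and 0.271 to 0.859 in responders, or 2 to 21 counts a tumour. It rose by 0.99 ± 0.35 in responders (edgeR adjusted p = 0.0155) and 1.06 ± 0.36 in stable tumours (adjusted p = 0.0198). In non-responders the difference of 0.99 ± 0.36 missed the threshold (edgeR adjusted p = 0.064), though it passed without non-responder 1, non-responder 2 or control 5. Leaving out control 4 ended both calls, with differences of 0.77 in responders and 0.84 in stable tumours.

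**Figure D1:**
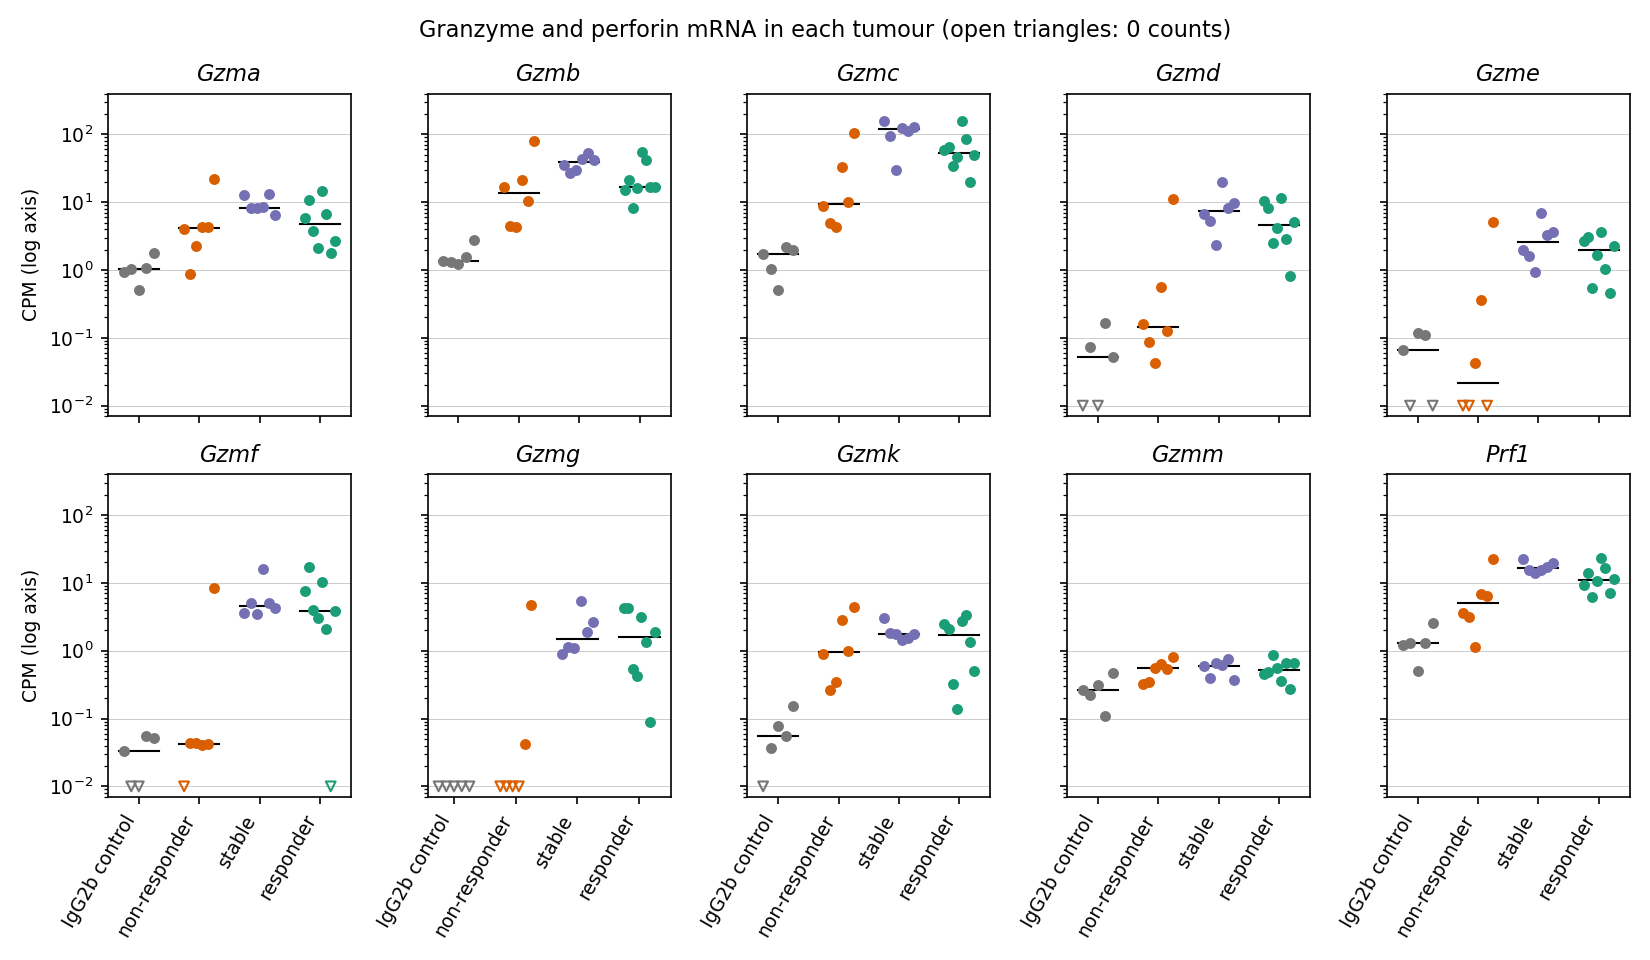
Level of each member in each tumour, in CPM on a log axis, by group. Points are tumours, bars are group medians and open triangles are tumours with 0 counts; their sideways position has no meaning. Gzmd, Gzme, Gzmf and Gzmg are near 0 in controls and in 5 of 6 non-responders, while Gzmb and Gzmc are above the controls in every treated tumour.

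Counted over the set, 10 of 10 members were called higher (adjusted p under 0.05) in responders than in controls, where 36.1% of the 18031 genes tested were called higher. In stable tumours 10 of 10 were called against a background of 22.2%, and in non-responders 9 of 10 against 10.6%. The median log2 difference over the members was 4.70, 5.16 and 4.01 in that order, beside 0.16, 0.03 and 0.04 over all genes tested. These 3 comparisons share the controls. In all 3, Gzmd to Gzmg and Gzmk were at most 0.164 CPM in controls and passed the filter on low counts only through treated tumours. They could hardly be called other than higher, so their calls add little to these counts beside the background. Without non-responder 6, which was singled out after its values were seen, the non-responders had 4 members called, Gzmb, Gzmc, Gzmk and Prf1, against a background of 8.30%. Their Gzmb difference was then 2.80 in place of 3.80. In that comparison the calls of Gzme, Gzmf and Gzmg also ended when any of controls 1 to 4 was left out, and that of Gzme ended in 16 of the 25 fits that left out a tumour. Gzmd to Gzmg and Gzmk were tested there because the filter on low counts ran over all groups, so their calls depend on that filter. With non-responders and controls fitted alone they were no longer tested. Prf1 at 2.41 was then not called, while Gzma, Gzmb and Gzmc stayed called.

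NK markers moved with these values, the 7 genes of the list summing to 2.97 to 8.74 CPM in controls, 5.41 to 62.2 in non-responders with non-responder 6 highest, 32.6 to 66.2 in stable tumours and 22.4 to 65.1 in responders. None of the 7 was at 0 in every tumour. Of the list 5, 6 and 5 of 7 were called higher than in controls in responders, stable tumours and non-responders, beside 36.1%, 22.2% and 10.6% of all genes. The 6 T cell markers summed to 4.90 to 16.5 CPM in controls, 14.1 to 121 in non-responders with non-responder 6 again highest, 93.1 to 136 in stable tumours and 50.2 to 157 in responders. The part of either cell type in the granzyme values was not tested.

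Among outcomes, no member was called in responders minus non-responders by edgeR, against 25.2% of all genes called higher. No member had an unadjusted p under 0.05 there, and DESeq2 called 0 as well. The differences were 0.08 ± 0.50 for Gzmb (edgeR adjusted p = 0.907), -0.05 ± 0.53 for Gzma (adjusted p = 0.946), 0.76 ± 0.44 for Prf1 (adjusted p = 0.159), 1.23 ± 0.61 for Gzmc (adjusted p = 0.0968) and 2.06 ± 1.05 for Gzmf (adjusted p = 0.103). In stable minus non-responder tumours 1 member, Gzmc, was called higher, by 1.97 ± 0.65 (edgeR adjusted p = 0.043), against a background of 7.08%. That call was lost in 14 of the 25 fits that left out a tumour, those without stable 1, 2, 4, 5 or 6, any of non-responders 1 to 5, or control 1, 2, 4 or 5. In responders minus stable tumours all 10 differences were below 0, from -0.75 to -0.03. The sign was not firm for Gzmf, Gzmg and Gzmm. Gzmf and Gzmg were above 0 without stable 4, at 0.51 and 0.37, and without responder 7, at 0.16 and 0.04. Gzmf and Gzmm changed sign in further settings, Gzmm for example to 0.39 with log2(RPKM + 0.1). Of the 10 differences, 0 were called or had an unadjusted p under 0.05 by edgeR, where 20.5% of genes were called higher and 17.8% lower. DESeq2 also called 0.

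Non-responder 6 decided the comparison with non-responders. It was left out after its values were seen, and it was highest of its group in every member then called. Leaving it out raises these differences by construction, so the adjusted p-values without it are descriptive only. Without it 7 members were called higher in responders, Gzmb, Gzmc, Gzmd, Gzme, Gzmf, Gzmg and Prf1, against a background of 24.5%, and in stable tumours these 7 and Gzma, against 11.1%. The responder difference was then 1.08 ± 0.41 for Gzmb (edgeR adjusted p = 0.0355), 1.55 ± 0.38 for Prf1 (adjusted p = 0.0026), 2.41 ± 0.54 for Gzmc (adjusted p = 0.00138) and 4.78 ± 0.76 for Gzmd (adjusted p = 8.1e-05). Gzma at 0.95 ± 0.46, Gzmk at 0.59 ± 0.61 and Gzmm at 0.15 ± 0.33 were not called (edgeR adjusted p = 0.09, 0.431 and 0.726). Cd8a differed by 1.15 ± 0.44 in the same fit (edgeR adjusted p = 0.0355), so the responders also had more of the denominator used below. With all tumours kept and the authors' RPKM values in place of counts, limma called 5 members in responders minus non-responders, Gzmc, Gzmd, Gzme, Gzmf and Prf1. The same 5 were called in stable minus non-responder tumours. The share of all genes called in these RPKM fits is not given here, so these counts have no background beside them.

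**Figure D2:**
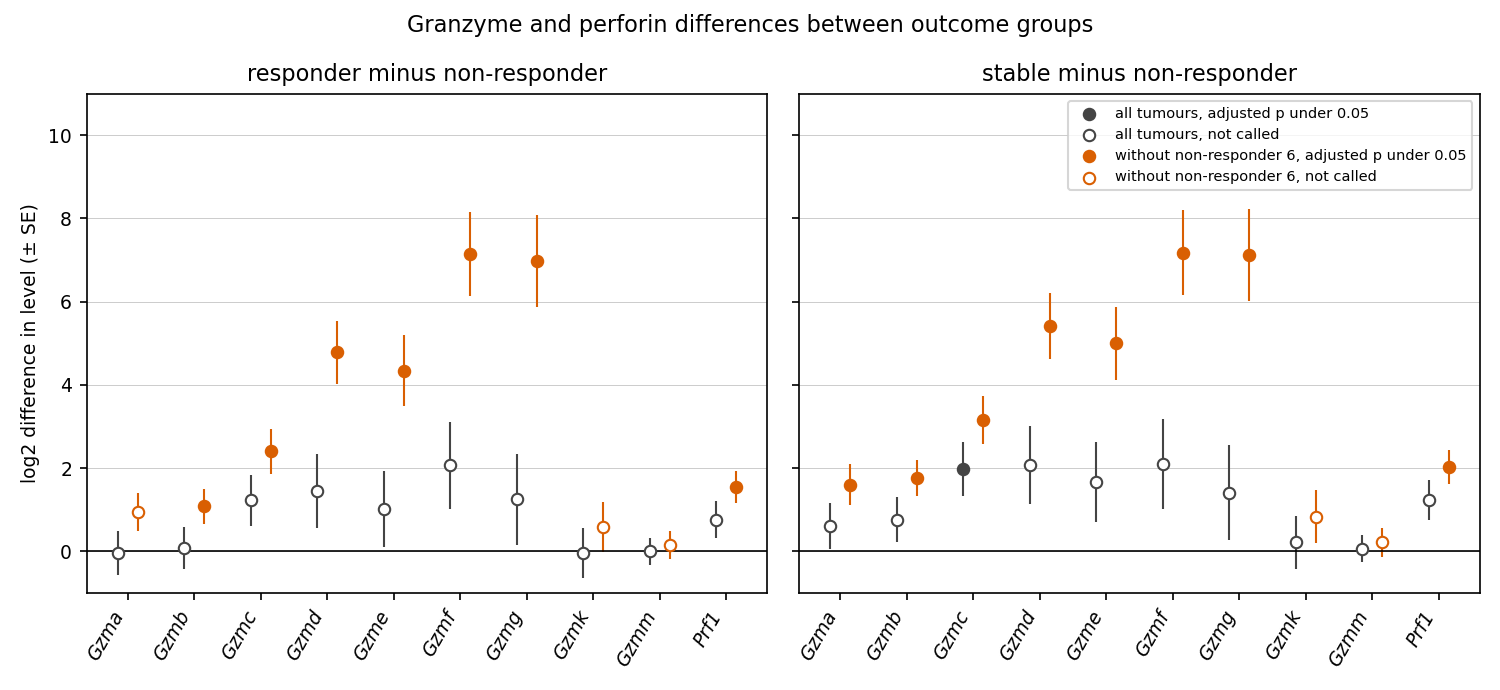
Log2 differences in level (± SE) of each member between responders (left) or stable tumours (right) and non-responders, from all tumours and without non-responder 6. Filled points passed an adjusted p of 0.05: with all tumours Gzmc alone, in stable tumours, and without non-responder 6 from 7 to 8 members.

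The copies gave different pictures in the deposited tables. In counts, Gzmf was 0 to 26.6 per 100 Gzmc (median 2.63), and in RPKM it was 10.0 to 40.9 per 100 Gzmc (median 25.9). Non-responders 1 to 5 had 0 or 1 Gzmf counts each, yet 0.753 to 6.26 RPKM, and responder 7 had 0 counts and 3.21 RPKM. The sources used here do not say how the RPKM table divides reads between copies, so a level of Gzmf alone is uncertain. Summed to a single row, Gzmc to Gzmg differed by 1.29 ± 0.64 between responders and non-responders (edgeR adjusted p = 0.0961) and by 1.97 ± 0.68 between stable tumours and non-responders (adjusted p = 0.0532).

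**Figure D3:**
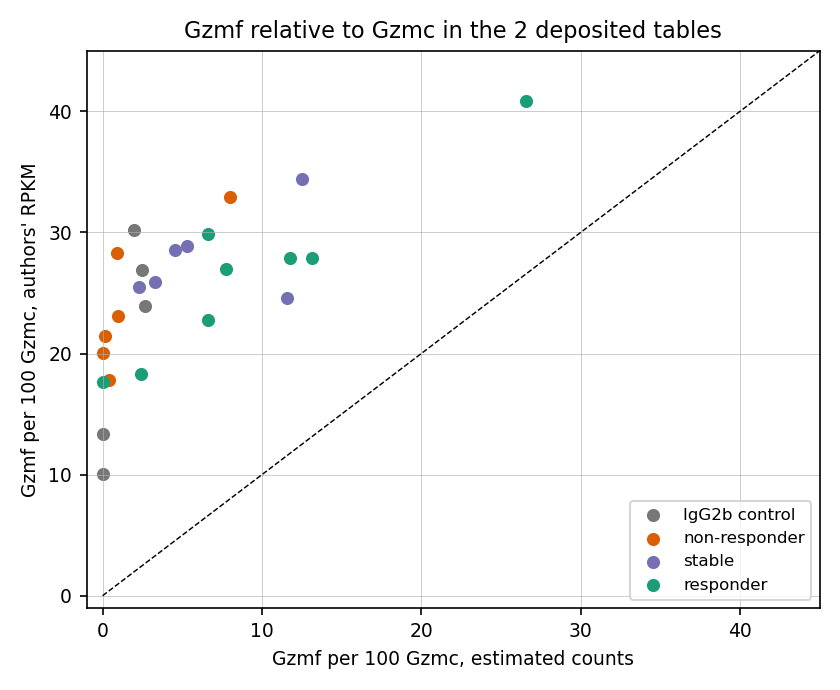
Gzmf per 100 Gzmc in each tumour, in the estimated counts (horizontal) and in the authors' RPKM (vertical). The dashed line marks equal values, and all 25 tumours lie above it.

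Each member was then set against Cd8a, an mRNA that marks CD8 T cells and some dendritic cells. Cd8a was at 1.01 to 5.43 CPM in controls (median 2.47), 4.98 to 48.8 in non-responders (median 21.5), 18.5 to 53.9 in stable tumours (median 28.8) and 19.6 to 59.2 in responders (median 34.5). It rose over controls by 3.95 ± 0.55, 3.67 ± 0.56 and 3.19 ± 0.55 in responders, stable tumours and non-responders (edgeR adjusted p = 2.77e-06, 1.38e-05 and 0.000627). Between responders and non-responders it differed by 0.76 ± 0.43 (edgeR adjusted p = 0.147). Cross-presenting dendritic cells can carry Cd8a too, and 4 of their markers summed to 6.27 to 15.3 CPM in controls, between 8.72 and 40.6 in non-responders, 35.0 to 77.7 in stable tumours and 28.1 to 60.4 in responders. Their part in the Cd8a level was not tested. A ratio to a gene that rose this much falls for nearly every gene, so the background of each ratio comparison is given beside its count.

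Gzmb stood at 0.484 to 1.51 counts per Cd8a count in controls, 0.366 to 1.62 in non-responders (median 0.778), 0.664 to 2.36 in stable tumours (median 1.33) and 0.293 to 0.963 in responders (median 0.647). The 4 groups overlapped, and responders had the lowest median among treated tumours. Prf1 stood at 0.203 to 1.27 in controls, 0.221 to 0.490 in non-responders (median 0.241), 0.410 to 0.831 in stable tumours (median 0.542) and 0.150 to 0.478 in responders (median 0.368). The log2 ratio of Gzmb to Cd8a did not pass the test in any of the 6 comparisons by limma, with values from -1.13 in responders minus stable tumours to 0.71 in stable tumours minus controls.

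Gzmd per Cd8a was at 0.00434 to 0.0183 counts per Cd8a count in non-responders 1 to 5 and 0.232 in non-responder 6, 0.0837 to 1.08 in stable tumours (median 0.223) and 0.0171 to 0.523 in responders (median 0.170). Of the 6 non-responders, 5 were below every stable tumour but only 4 below every responder, since responder 7 was lower than non-responder 4. Its log2 ratio was higher by 2.13 ± 0.63 in responders than in non-responders (limma adjusted p = 0.00721). Gzme at 1.54 ± 0.63, Gzmf at 2.56 ± 1.01 and Gzmg at 1.64 ± 0.68 were called as well (limma adjusted p = 0.0418, 0.0481 and 0.0468). These 4 of 10 stand beside a background of 0.466% of genes called higher, with a median of 0.50 over the members and -1.06 over all genes. In stable minus non-responder tumours Gzmc at 1.97 ± 0.55, Gzmd at 3.08 ± 0.67 and Gzme at 2.44 ± 0.68 were called (limma adjusted p = 0.0285, 0.00696 and 0.0285), against a background of 0.139%, a median of 1.45 over the members and -0.85 over all genes. Of these calls, Gzmd held in every fit that left out a tumour, in both comparisons. In responders minus non-responders Gzme was lost in 7 of those 25 fits, Gzmf in 19 and Gzmg in 11, and in stable minus non-responder tumours Gzmc was lost in 8 and Gzme in 4.

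These ratio calls depend on how the ratio is formed, those of responders minus non-responders most. With Cd3e, a T cell receptor complex gene, in place of Cd8a, 0 members were called higher in responders minus non-responders and 3 were called lower, Gzma by -1.25 ± 0.48, Gzmk by -1.44 ± 0.52 and Gzmm by -1.53 ± 0.52 (limma adjusted p = 0.0163, 0.0106 and 0.00698). In that comparison 71.7% of all genes were called lower per Cd3e, so 3 of 10 is below the background. Cd3e itself was higher by 1.26 ± 0.36 in responders (edgeR adjusted p = 0.0067). Taking the Cd8a count as an offset in edgeR called 0 in responders minus non-responders, as did the protein-coding share of the library as a covariate. In stable minus non-responder tumours 4 members were called higher with Cd3e, 3 with the offset and 4 with the covariate. Gzmd stayed called there in every alternative setting. Gzmc was lost with only the groups compared, and Gzme with a prior count of 5, the offset or log2(RPKM + 0.1). The share of all genes called in these fits is not given here. Without non-responder 6 there were 5 in each comparison, Gzmc to Gzmg, against backgrounds of 0.433% and 0.406%. That tumour was left out after its values were seen. In Gzmd to Gzmg the counts of controls and of non-responders 1 to 5 are so few that a log2 ratio rests on the prior count of 2. Gzmd had 22 counts over those non-responders. Its ratio difference in responders minus non-responders ran from 1.485 to 2.833 over the alternative settings.

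Against controls, the share of genes whose ratio to Cd8a was lower was 96.3% in responders, 95.8% in stable tumours and 96.9% in non-responders. Gzmc rose per Cd8a in responders, by 1.24 ± 0.54 (limma adjusted p = 0.0238), and in stable tumours, by 2.31 ± 0.57 (adjusted p = 8.96e-05), where 0.0499% and 0.111% of all genes were called higher. The responder call ended without control 2, 3 or 5, with a lowest difference of 0.86, and also with Cd8a as an edgeR offset (0.93), when the share of protein-coding reads entered the fit (1.04) and by exact permutation test (1.24). Gzmd was called higher in stable tumours too, by 1.84 ± 0.70 (limma adjusted p = 0.0113), which did not hold without stable 4 or without control 5, the lowest difference being 1.41, or with a prior count of 5, at 0.94. Gzma was called lower in responders, by -1.89 ± 0.56 (limma adjusted p = 0.000959), a call that ended with Cd8b1 as denominator (-1.0). Gzmm was called lower in all 3 treated groups, by -3.25 ± 0.65, -2.92 ± 0.69 and -2.15 ± 0.69 in responders, stable tumours and non-responders (limma adjusted p = 1.43e-06, 3.97e-05 and 0.00235). Gzme and Gzmg were called lower in non-responders. The last pair had 9 and 0 counts over all controls, so their lower ratio is no measured fall. No member was called higher per Cd8a in non-responders by limma, where 0.00555% of genes were, the largest value being 0.34 ± 0.57 for Gzmc. The edgeR offset fit also called 0 higher there, and no member with an unadjusted limma p under 0.05 was above 0.

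Per Cd8a, no member was called between responders and stable tumours by limma, where 0.0666% of genes were called higher and 32 of 18030 lower. All 10 log2 differences were below 0, from -1.20 to -0.33, and 3 had an unadjusted p under 0.05. In two-sided exact permutation tests over the 14 tumours, 1 gene at a time and with no adjustment, Gzmb (-1.13, p = 0.00666), Prf1 (-0.83, p = 0.00799), Gzma (-1.20, p = 0.0216) and Gzmc (-1.07, p = 0.0443) were lower in responders. Fitting only these groups, limma called 1, Gzmb, lower in responders, and the share of all genes called in that fit is not given here. Cd8b1, the other CD8 chain, stood at 0.179 to 0.391 counts per Cd8a count in responders and 0.327 to 0.455 in stable tumours. Per Cd8b1, Gzmg at 0.02 and Gzmm at 0.41 were above 0 and not called, while the other differences stayed below 0. Over the alternative settings the Gzmb and Prf1 differences came as near 0 as -0.385 and -0.084.

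**Figure D4:**
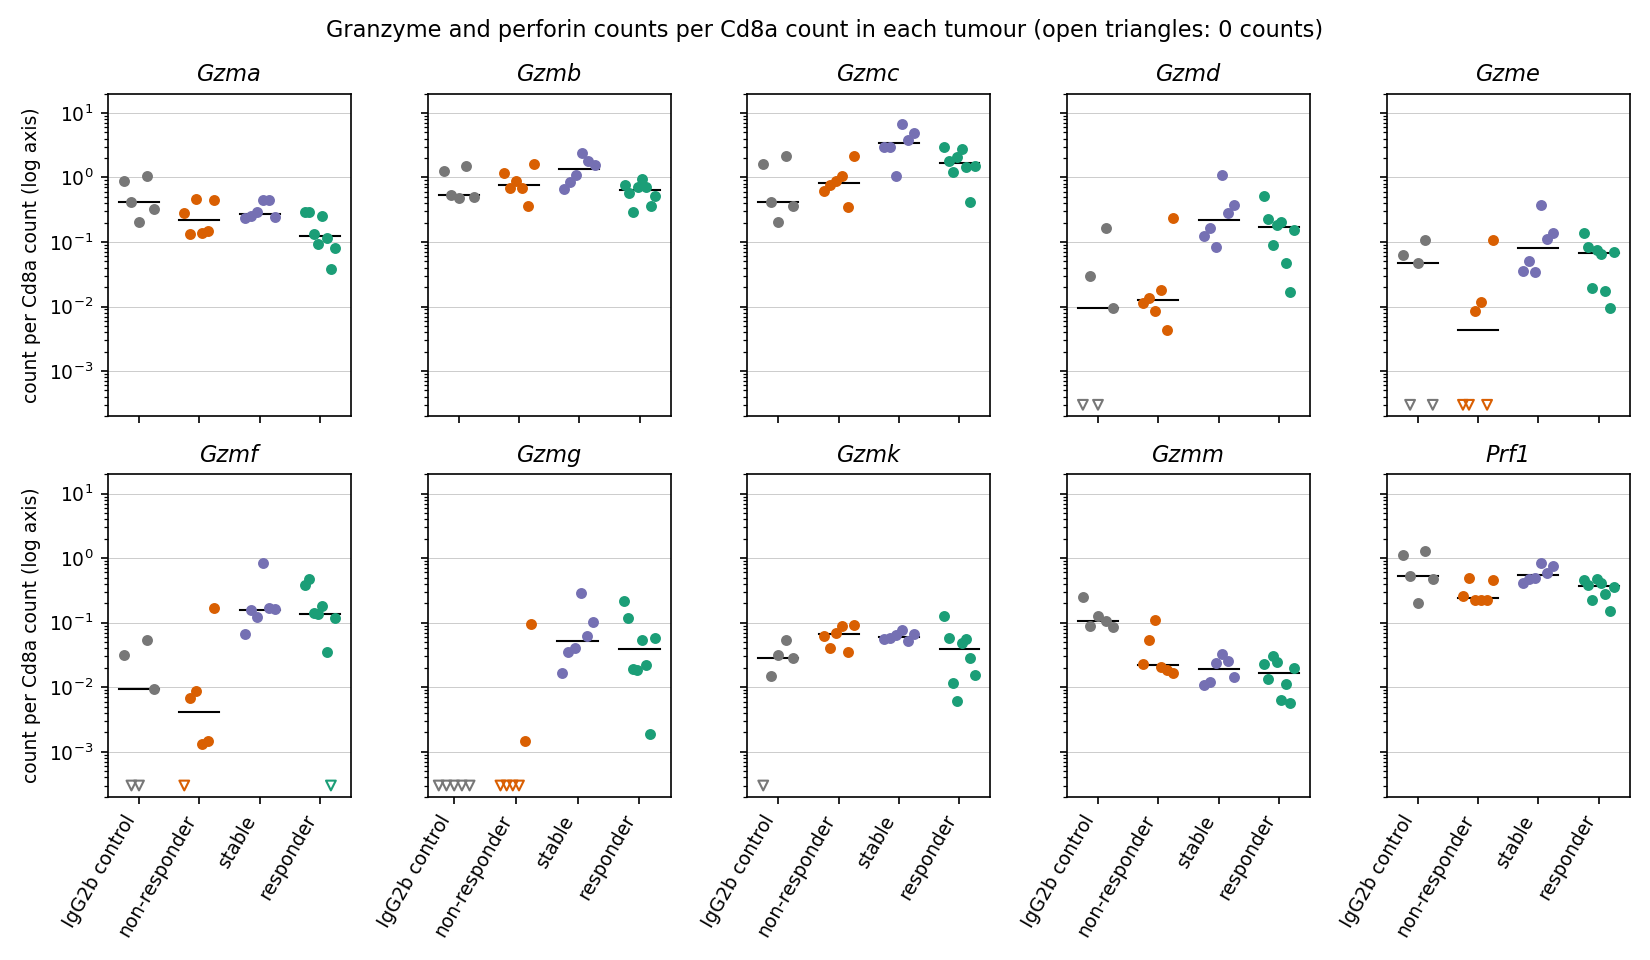
Counts of each member per Cd8a count in each tumour, on a log axis, by group. Points are tumours, bars are group medians and open triangles are tumours with 0 counts of the member; Gzmm lies lower in most treated tumours than in the controls, and Gzmd to Gzmg separate non-responders 1 to 5 from stable tumours.

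How the members varied together was described with log2 CPM centred within each group, over 25 tumours that share library, depth and the weight of non-responder 6. Gzmd followed Gzme (Pearson's r = 0.94) and Gzmg (0.90), and Gzmf followed Gzmg (0.91), values that also hold what the copies share in sequence. Gzmb followed Prf1 (0.87) and Gzmc (0.84) and was further from Gzmf (0.50, or 0.13 without non-responder 6). With Cd8a, r was 0.73 for Prf1, 0.72 for Gzmb and 0.71 for Gzmk, and 0.66, 0.65 and 0.64 without non-responder 6. For Gzmd, Gzme, Gzmf and Gzmg it was 0.16 to 0.34, and without that tumour -0.18 to 0.03. Non-responders 4 and 5 had 30.9 and 28.8 CPM of Cd8a, within the range of the responders, and 0.971 and 0.208 CPM of the summed Gzmd to Gzmg.

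**Figure D5:**
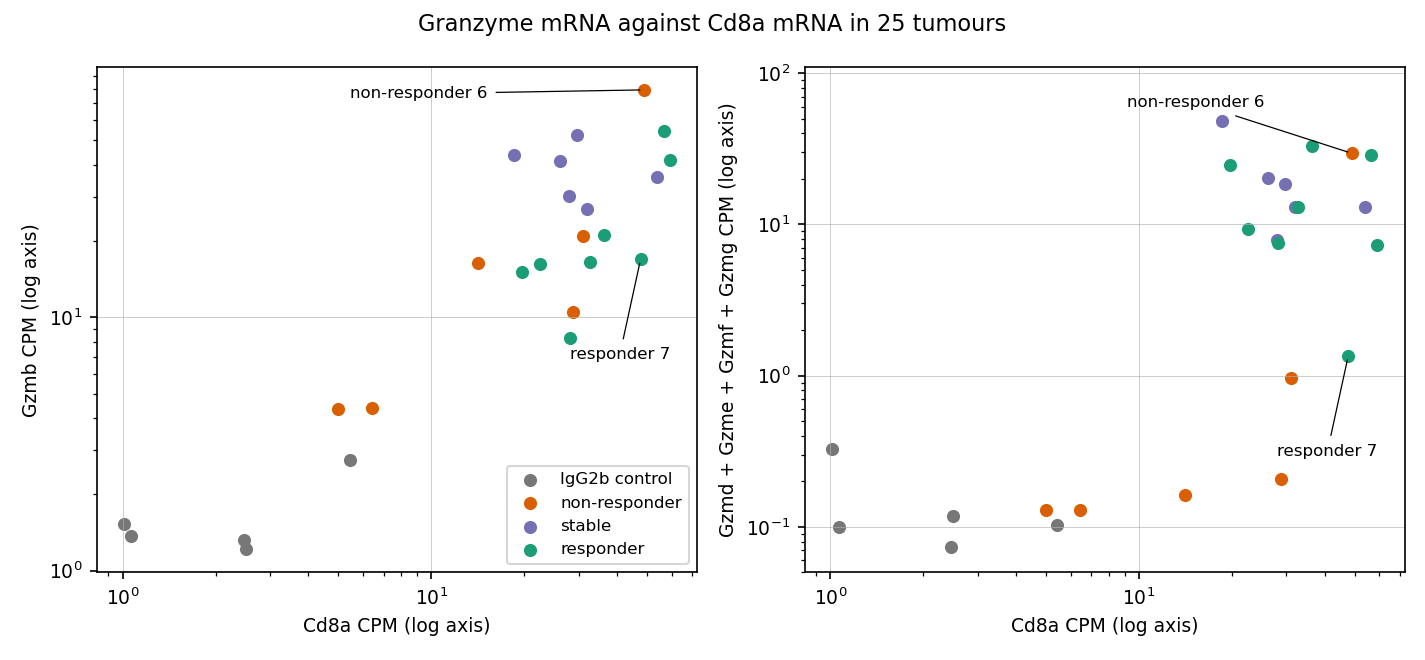
Gzmb (left) and the sum of Gzmd to Gzmg (right) against Cd8a in each of 25 tumours, in CPM on log axes. Gzmb is higher where Cd8a is higher, while the sum spans from 0.208 to 48.1 CPM among tumours with 18.5 or more CPM of Cd8a.

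By the same measure, the genes most alike each member outside the set were looked up among genes of at least 1 CPM on average. Gzma was most like Cst7, which encodes the protease inhibitor cystatin F (r = 0.89, or 0.83 without non-responder 6). Gzmb was most like Serpinb6b, a serpin (0.90, or 0.83), Gzmc most like Xcl1, a chemokine of activated T and NK cells (0.85, or 0.76), and Gzmk most like Klre1, an NK cell receptor gene (0.88, or 0.88). Prf1 was most like Tcrg-C4, a constant segment of the gamma T cell receptor (0.91, or 0.87), followed by Ctsw, a cathepsin of cytotoxic cells, and Il2rb, an interleukin-2 receptor chain. Gzmd, Gzmf and Gzmg were most like Mmp12, the macrophage metalloelastase, at 0.87, 0.92 and 0.86, or 0.74, 0.85 and 0.71 without non-responder 6. Gzme was most like Il1a, interleukin-1 alpha (0.83, or 0.60), followed by Alas1 (0.795, or 0.525) and Mmp12 (0.79, or 0.56). Gzmf also followed Chil3 (0.88, or 0.82) and Mmp8 (0.87, or 0.85), genes known from macrophages and neutrophils. Summed, 6 macrophage markers had a median of 543 CPM in controls. They were at 638 to 1981 CPM in non-responders with non-responder 6 highest, 1797 to 2829 in stable tumours and 812 to 2502 in responders, and their part in these values was not tested. Gzmm had no close match, its highest r being 0.58.

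Genes that serve the granule were read from lists drawn up by known role. Of 13 tested genes for granule making and release, 8 were called higher and 3 lower in responders than in controls, 7 and 1 in stable tumours and 6 and 0 in non-responders, with medians of 0.95, 1.29 and 0.41. Over all genes 36.1%, 22.2% and 10.6% were called higher in these comparisons and 28.9%, 19.6% and 3.29% lower. Ctsw rose by 3.82 ± 0.47 in responders (edgeR adjusted p = 6.51e-07), and Nkg7, a granule membrane protein, by 3.24 ± 0.53 in stable tumours (adjusted p = 3.02e-05). Rab27a, which docks granules and also melanosomes, fell by 3.02 ± 0.42 in responders (edgeR adjusted p = 2.66e-06), beside the melanocytic markers given above. In responders minus non-responders 5 of the 13 were called higher and 2 lower, beside 25.2% and 23.8% of all genes, with Unc13d, the granule priming factor Munc13-4, higher by 1.13 ± 0.28 (edgeR adjusted p = 0.0028).

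Of 17 regulators, transcription factors and cytokine receptors known to drive these genes, 13 rose in responders, 14 in stable tumours and 11 in non-responders against controls, and 0 fell, beside the 36.1%, 22.2% and 10.6% of all genes called higher. Their medians were 2.40, 2.42 and 1.37. Il18r1, a receptor chain for interleukin-18, rose by 4.36 ± 0.46 in responders, 4.14 ± 0.46 in stable tumours and 2.77 ± 0.43 in non-responders (edgeR adjusted p = 1.28e-07, 8.21e-07 and 0.000462). In responders minus non-responders 8 of 17 were called higher and 0 lower, against the background of 25.2%, with Runx3, whose family's letters mark the promoters above, at 1.72 ± 0.35 (edgeR adjusted p = 0.000647) and Il12rb2, an interleukin-12 receptor chain, at 1.64 ± 0.48 (adjusted p = 0.00787). In stable minus non-responder tumours 8 were called higher too, against 7.08%, Stat4 among them at 1.24 ± 0.40 (edgeR adjusted p = 0.0371).

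All 8 other effectors of cytotoxic cells rose in responders and in stable tumours against controls, and 7 of 8 in non-responders, against backgrounds of 36.1%, 22.2% and 10.6%, with medians of 3.05, 3.48 and 2.37. Ifng, interferon gamma, rose by 4.00 ± 0.66, 4.76 ± 0.69 and 3.66 ± 0.66 in responders, stable tumours and non-responders (edgeR adjusted p = 1.81e-05, 8e-06 and 0.000793). Between responders and non-responders 0 of 8 were called by edgeR, with a median of 0.38, and between stable tumours and non-responders 1 was, Ccl5, a T cell chemokine, by 1.95 ± 0.49 (adjusted p = 0.0114).

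Of 7 serpins that inhibit granzymes or are kin of such inhibitors, 3 rose and 2 fell in responders against controls, with a median of 0.73, shares near the 36.1% and 28.9% of all genes called higher and lower. Serpina3g rose by 2.54 ± 0.39 (edgeR adjusted p = 7.88e-06) and Serpinb1a fell by 2.90 ± 0.34 (adjusted p = 3.06e-07). Serpinb9, known as an inhibitor of granzyme B, was lower in responders than in stable tumours by a log2 difference of -0.97 ± 0.27 (edgeR adjusted p = 0.00995), as was Serpinb6b at -0.97 ± 0.37 (edgeR adjusted p = 0.0405), where 17.8% of all genes were called lower. Of 15 genes for granzyme uptake and known substrates, 8 fell and 2 rose in responders against controls, with a median of -0.40, beside 28.9% of all genes called lower and 36.1% higher. Against non-responders 10 were lower and 2 higher, beside 23.8% and 25.2%. Hmgb2 and Apex1, nuclear proteins cut by granzyme A, fell by 1.45 ± 0.16 and 1.36 ± 0.20 in responders against controls (edgeR adjusted p = 2.46e-07 and 3.49e-06).

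The mast cell proteases that lie in the same chromosome 14 cluster had a pattern of their own. Of 9 genes listed from that cluster, Gzmn among them, 4 passed the filter, and in responders minus non-responders 0 were called higher and 2 lower, Cma1 by -2.56 ± 0.36 (edgeR adjusted p = 3.11e-05) and Mcpt4 by -2.37 ± 0.38 (adjusted p = 9.42e-05). Beside them, the 8 mast cell markers, some of which are these genes, summed to 73.5 to 151 CPM in non-responders and 12.9 to 56.4 in responders, with 5 of 8 called lower, against the same background of 23.8%.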

How the data were processed

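RNA was sequenced from 25 tumours. Per the submitters' processing notes, bcl2fastq 2.17, Trimmomatic, STAR 2.5.1 and RSEM 1.2.22 were used with build mm10. The labels name both a stranded total RNA kit and polyA RNA, and no strand setting is stated. The authors deposited estimated counts per gene, of which 5.64% of values were not whole, and a table of RPKM values, with no gene lengths or denominator stated. Groups came from the labels' titles.

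Estimated counts were rounded and tested with edgeR 4.0.16 (R 4.3.3; filterByExpr, TMM, robust quasi-likelihood fit of 4 group means over 25 tumours). Log2 CPM minus log2 CPM of Cd8a (prior count 2) was tested with limma 3.58.1. P-values were adjusted by Benjamini-Hochberg over all 18031 or 18030 genes, and calls are at 0.05. The RPKM values were tested with limma on log2(RPKM + 1) and DESeq2 1.42.0 was an alternative. The fits were tested on simulated data. The members and lists were chosen with earlier results of these data known. All members are named; from each other list, the 2 genes with the largest called difference and a mean of at least 1 CPM may be named, and for each member the 3 most correlated genes. All 55450 gene IDs matched GENCODE M21. Counts of 8.76 to 34.3 M per library make genes with few counts imprecise.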

Additional observations from a re-analysis of the deposited data

Results flagged for a closer look

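A tumour far from the others of its group was looked for in 80 sets of log2 values (CPM, or count per Cd8a count, of each member in each group), with Dixon's test, and 11 stood apart. Chance alone marks about 1 in 20 such sets.

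Non-responder 6 was far above the other non-responders in log2 CPM of Gzmd (3.51 against -2.80 to -0.58), Gzmf (3.08 against -3.31 to -2.80) and Gzmg (2.27 against -3.31 to -2.81). Responder 7 was far below the other responders in log2 CPM of Gzmf (-3.31, with 0 counts, against 1.12 to 4.13) and in the log2 ratios to Cd8a of Gzmf (-8.89 against -4.77 to -1.06) and Gzmc (-1.27 against 0.26 to 1.55). Stable 4 was far above the other stable tumours in Gzmf, both in log2 CPM (3.99 against 1.83 to 2.37) and in log2 ratio to Cd8a (-0.23 against -3.87 to -2.52). Gzmc was low in stable 3 (log2 CPM 4.91 against 6.57 to 7.32), Gzmk was high in stable 1 (1.66 against 0.62 to 0.97) and Gzmb was high in control 5 (1.51 against 0.39 to 0.71).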

How the results depend on the processing

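Over 120 member differences and 4284 alternative values, 3887 kept their sign and side of the threshold, 107 values of 28 differences changed sign with neither value called, 174 were no longer past it, 114 passed it anew and 2 changed sign with a call at one end. The 2 were the Gzmg ratios with Cd8a as an edgeR offset, at 7.78 in responders and 6.19 in non-responders minus controls, where controls have 0 Gzmg counts. Among the uncalled changes of sign, Gzma in responders minus non-responders went from -0.05 to 0.95 without non-responder 6, the Gzmb ratio in responders minus controls from -0.41 to 0.48 with Cd8b1 as denominator, and the Gzmf ratio in non-responders minus controls from -1.86 to 1.25 with the edgeR offset. Elsewhere the cause was not tested.

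In levels, responders minus non-responders went from 0 members called to 5 with log2(RPKM + 1), 5 with no filter on RPKM and 6 with log2(RPKM + 0.1), and leaving out 1 tumour gave 0 to 7. Stable minus non-responder tumours went from 1 to 2 with DESeq2, to 0 with no low-count filter, with only the groups compared, with a 2-fold threshold and with copies summed, to 5 with log2(RPKM + 1), 5 with no filter on RPKM and 6 with log2(RPKM + 0.1), and leaving out 1 tumour gave 0 to 8. Against controls, responders and stable tumours each went from 10 to 6 with the stricter filter and 5 with copies summed, since fewer members were then tested, and leaving out 1 tumour gave 9 to 10 in both. Non-responders minus controls went from 9 to 3 with only the groups compared, 3 with a 2-fold threshold, 4 with copies summed, 3 with log2(RPKM + 1) and 3 with no filter on RPKM, and leaving out 1 tumour gave 4 to 10. Fewer members were likewise tested here with only the groups compared, and in every comparison with copies summed.

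In ratios to Cd8a, responders minus non-responders went from 4 called to 2 with a prior count of 5, to 3, all lower, with Cd3e as denominator, to 0 with the edgeR offset, 1 with log2(RPKM + 0.1), 0 with the protein-coding share as covariate, 2 with only the groups compared and 1 by exact permutation, and leaving out 1 tumour gave 1 to 5. Responders minus stable tumours went from 0 to 1 with only the groups compared and 4 by exact permutation, all lower, and leaving out 1 tumour gave 0. Stable minus non-responder tumours went from 3 to 6 by exact permutation, and leaving out 1 tumour gave 1 to 5. Responders minus controls went from 3 (1 higher, 2 lower) to 6 with a prior count of 5, 3 (2 higher, 1 lower) with Cd8b1 as denominator and 5 with log2(RPKM + 0.1), and leaving out 1 tumour gave 2 to 5. Stable tumours minus controls went from 3 to 2 (1 higher, 1 lower) with a prior count of 5 and to 5 with the edgeR offset, and leaving out 1 tumour gave 2 to 4. Non-responders minus controls went from 3 to 5 with a prior count of 5 and to 1 with Cd3e as denominator, 1 with only the groups compared and 1 by exact permutation, and leaving out 1 tumour gave 3 to 7. Copies summed before the ratio was chosen after seeing the data.

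No paired analysis was possible because the labels number no replicates across groups. Few counts limit Gzmd to Gzmg in controls and non-responders, and Gzmm everywhere.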
